A study of Mus musculus with 118 samples.

Results

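The genes described here are the 40 of 23998 gene symbols in the table of read counts whose names begin with *Psma*, *Psmb*, *Psmc* or *Psmd*, which are the symbols of the proteasome subunits. They were chosen by name alone. Of them, 19 (*Psma*, *Psmb*) belong to the core and 21 (*Psmc*, *Psmd*) to the cap. The symbols also took in 1 gene that is no subunit, *Psmc3ip*, a cofactor of meiotic recombination, and 3 factors that help to assemble the cap, *Psmd5*, *Psmd9* and *Psmd10*.

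The proteasome is the barrel-shaped protease that degrades proteins tagged with ubiquitin in every cell. Alpha subunits (*Psma*) form its outer rings and beta subunits (*Psmb*) its inner rings, where *Psmb5*, *Psmb6* and *Psmb7* carry the cutting sites. The cap recognises tagged proteins, removes their ubiquitin and feeds them into the barrel, with a ring of ATPases (*Psmc*) and a set of other subunits (*Psmd*). After interferon signals the cutting subunits can be replaced by *Psmb8*, *Psmb9* and *Psmb10*, which gives the immunoproteasome. Neurons depend on the proteasome for the turnover of synaptic proteins.

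RNA was read by Patch-seq, where the recording pipette draws in the contents of the neuron for cDNA synthesis, here with a protocol based on Smart-seq2 that has no molecular identifiers. The cells were tdTomato-labelled cells in layer 4 (L4) or layer 5 (L5) of primary visual (V1) or somatosensory (S1) cortex of adult SOM-Cre/Ai9 mice, whose marker stays on in any cell that expresses or once expressed somatostatin. No group was treated, and the comparisons are between areas and between layers. Cells were kept with an *Sst* read, 1500 or more detected genes, and *Slc17a7* counts not above the sum of *Gad1* and *Gad2*. In L4 this kept 42 of 44 cells of V1 and 34 of 39 of S1, and in L5 17 of 19 of V1 and 16 of 16 of S1. Every kept cell had reads of SOM and GABAergic markers, which the rule on *Sst* ensures, because *Sst* is 1 of these 6 markers. Reads of markers of other cell types were present too. At least 1 of 7 microglia markers was read in 56.3% to 73.8% of the cells of a group. For 5 oligodendrocyte markers this share was 76.5% to 93.8%. Excitatory neuron markers (5) gave 47.1% to 68.8%, astrocyte markers (5) 17.6% to 56.3% and endothelial markers (3) 0% to 14.7%. Where these reads came from was not tested.

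No label tells which cells share an animal. An area in a layer therefore counts as 1 sample, cells are not replicates and no test was run. The date in a label gave 9 dates, numbered 1 to 9 here, and all L5 cells came from dates 3 to 6. A difference between groups is the mean over dates of the differences within a date, on the log2(CPM + 1) scale, where CPM stands for a gene's count scaled to the total count of its cell. Its spread is the SD over dates. A gene was called different when this mean was at least 1 in size with the same sign in every date used, and genes were considered where 10 or more cells of the 2 groups had 32 or more counts. Total counts per cell ran from 97904 to 3295232, with a median of 1111833, and the members took a median of 0.478% of them (range 0.176% to 1.04%). Reads are not molecules, so intervals below cover counting error only.

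Parts of some members cannot be told apart from copies elsewhere in the genome by a read of 75 bases, the read length of these libraries. A search of all GENCODE M21 transcripts (GRCm38, the mm10 build) found 14 copies of 8 members, each at least 95% identical over at least 50% of the coding sequence. Of these, 12 were processed pseudogenes, and 1 had an entry of its own in the table of counts. The middle 75 coding bases of the 4 core members with the largest shared part are printed with the same stretch of the copy that shares most. Capitals mark bases at which the copy differs. The alpha subunit gene *Psma3* (chr12:70974621-70996347, + strand) is set beside *Gm13835* (chr6:31141979-31142663, - strand), and *Psma5* (chr3:108256926-108279974, + strand) beside *Gm12989* (chr4:135715868-135716598, - strand). The chymotrypsin-like subunit gene *Psmb5* (chr14:54614119-54618022, - strand) is set beside *Gm3375* (chr7:3181093-3181888, + strand), and the beta subunit gene *Psmb3* (chr11:97703399-97713500, + strand) beside *AC114990.1* (chr16:21896506-21897116, + strand).
Psma3: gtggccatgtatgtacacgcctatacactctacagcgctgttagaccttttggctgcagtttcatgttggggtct
Gm13835: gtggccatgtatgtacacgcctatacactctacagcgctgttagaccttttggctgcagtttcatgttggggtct
Psma5: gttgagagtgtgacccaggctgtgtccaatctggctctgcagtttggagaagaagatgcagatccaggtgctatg
Gm12989: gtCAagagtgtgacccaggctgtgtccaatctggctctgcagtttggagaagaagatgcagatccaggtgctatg
Psmb5: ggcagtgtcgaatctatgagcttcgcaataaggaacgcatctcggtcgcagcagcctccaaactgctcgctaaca
Gm3375: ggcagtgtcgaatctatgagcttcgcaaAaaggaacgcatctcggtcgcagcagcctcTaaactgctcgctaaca
Psmb3: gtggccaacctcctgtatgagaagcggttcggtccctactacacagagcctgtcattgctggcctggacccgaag
AC114990.1: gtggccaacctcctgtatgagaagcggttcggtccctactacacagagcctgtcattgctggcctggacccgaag

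Over these windows *Psma3* and *Psmb3* were identical to their copies, and *Psma5* and *Psmb5* differed from theirs at 2 bases each. Over the whole coding sequence, the share of 75-base stretches that also occur exactly in a transcript of another gene was 85.1% for *Psma3*, 62.9% for *Psma5*, 45.5% for *Psmb5*, 42.3% for *Psmb3* and 19.9% for the alpha subunit *Psma4*. In the cap it was 21.4% for *Psmd11*, 15.1% for *Psmd2* and 9.95% for *Psmc1*. It was 0 for 7 of the 14 constitutive core members, and 15.6% for *Psmb7* and 8.28% for *Psma2*, which have no copy by the rule above. How reads that fit several places were counted is not stated in the sources used here.

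Levels of different genes were compared per length, with the RPKM values the authors deposited. All 31 constitutive subunits lay above the median of the 9993 genes past the filter over all kept cells, 16.3 RPKM, and 25 lay above the 90th percentile, 72.7 RPKM. The proteasome was thus read as an abundant set of transcripts in SOM+ cells of both areas and both layers.

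In the core, the beta subunit *Psmb4* had the highest mean, 218 RPKM ± 160.96 (SD over all kept cells), and was the highest core member in 6 of 9 dates. The alpha subunit *Psma6* (152.7 RPKM ± 167.3) and the beta subunit *Psmb1* (150.2 RPKM ± 120.2) came next. Their date means overlapped those of *Psma1* (147.7 RPKM ± 134.7) and *Psma2* (142.6 RPKM ± 118.1), so the order below *Psmb4* is not fixed by these data. *Psmb2* (132.5 RPKM), *Psma7* (131.9 RPKM) and the cutting subunits *Psmb6* (117.5 RPKM) and *Psmb7* (104.9 RPKM) completed a group of 9.

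The other 5 constitutive core members formed a separate low group, and they were the 5 that have a near-identical copy. *Psma4* had 59.3 RPKM ± 55.6, *Psmb5* 44.2 RPKM ± 42.5, *Psmb3* 37.6 RPKM ± 34.6, *Psma3* 33.7 RPKM ± 23.99 and *Psma5* 30.7 RPKM ± 29.6 (SD over all kept cells). These means did not overlap those of the 9 members without a copy, 104.9 to 218 RPKM, and the medians of the 2 sets differed 3.80-fold. The split was present in each of the 4 groups, for example 29.2 to 56.4 against 100.2 to 206 RPKM in V1 L4 and 33.4 to 74.7 against 106.8 to 235 RPKM in S1 L5. Within dates, all 5 lay below all 9 in 6 of 9 dates, and the exceptions were dates 1, 6 and 9, with 3, 10 and 7 cells. Subunits of 1 ring are built into the particle in equal numbers, which is a statement about protein and not about RNA. Across the 14 members the rank correlation of the shared part with the mean RPKM was -0.87, a description over genes that come from the same libraries. Whether reads of these stretches were lost or split, and whether that had a part in the low values, was not tested.

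**Figure D1:**
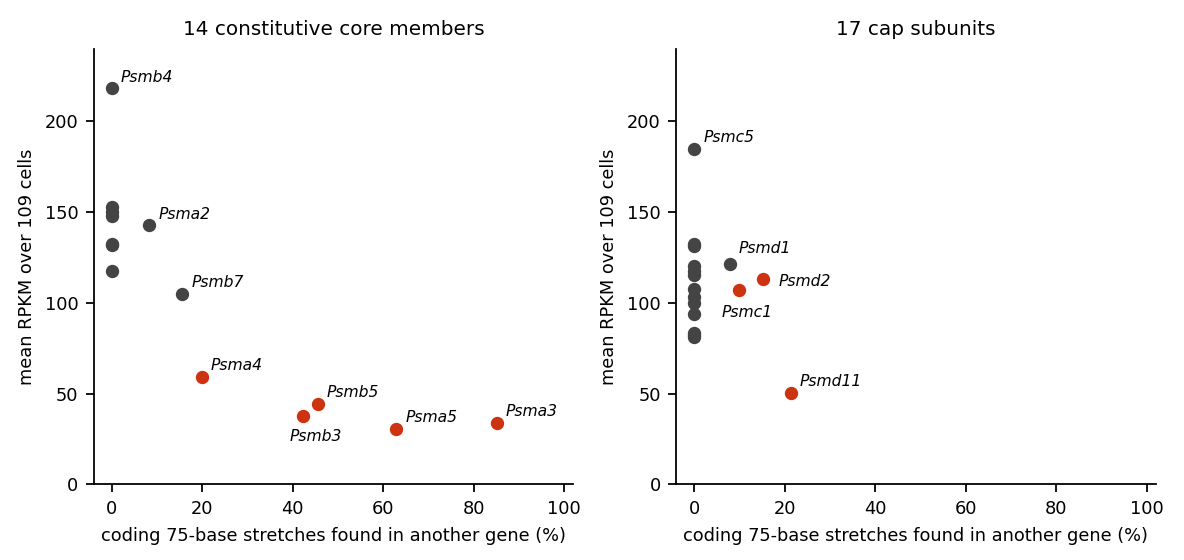
Mean RPKM over all kept cells (vertical axis) against the percent of coding 75-base stretches that occur exactly in a transcript of another gene (horizontal axis), for the 14 constitutive core members (left) and the 17 cap subunits (right). Red points are members with a near-identical copy. In the core, the 5 red points lie at 30.7 to 59.3 RPKM, below all other points, while in the cap *Psmd2* and *Psmc1* lie among the rest and *Psmd11* is the lowest.

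Among cap subunits the highest mean was 3.66 times the lowest, against 7.10 times in the core. Without the members that have a copy, these spans were 2.28-fold in the cap and 2.08-fold in the core. The 6 ATPases ran from 103.3 RPKM (*Psmc3*) to 185 RPKM (*Psmc5*), with a median of 116.3 RPKM. *Psmc5* was the highest cap subunit in 8 of 9 dates. The other 11 cap subunits ran from 50.5 RPKM for the lid subunit *Psmd11*, again a member with a copy and the lowest cap subunit in 7 of 9 dates, to 132.5 RPKM for the lid subunit *Psmd6*. *Psmc1* (106.8 RPKM) and the large scaffold subunit *Psmd2* (112.9 RPKM) have copies too, yet lay in the middle of the cap. Over the 17 cap subunits the rank correlation of the shared part with the mean RPKM was -0.14. Of the assembly factors, *Psmd5* had a mean of 51.1 RPKM, near that of *Psmd11*, but a median over cells of 3.97 against 50.8 RPKM. It was read in 54.1% of cells, and *Psmd11* in 82.6%. The means of *Psmd10* (15.5 RPKM) and *Psmd9* (7.92 RPKM) were lower than that of any subunit of the cap. The exons of *Psmd9* overlap those of *Gm26745* on the other strand.

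**Figure D2:**
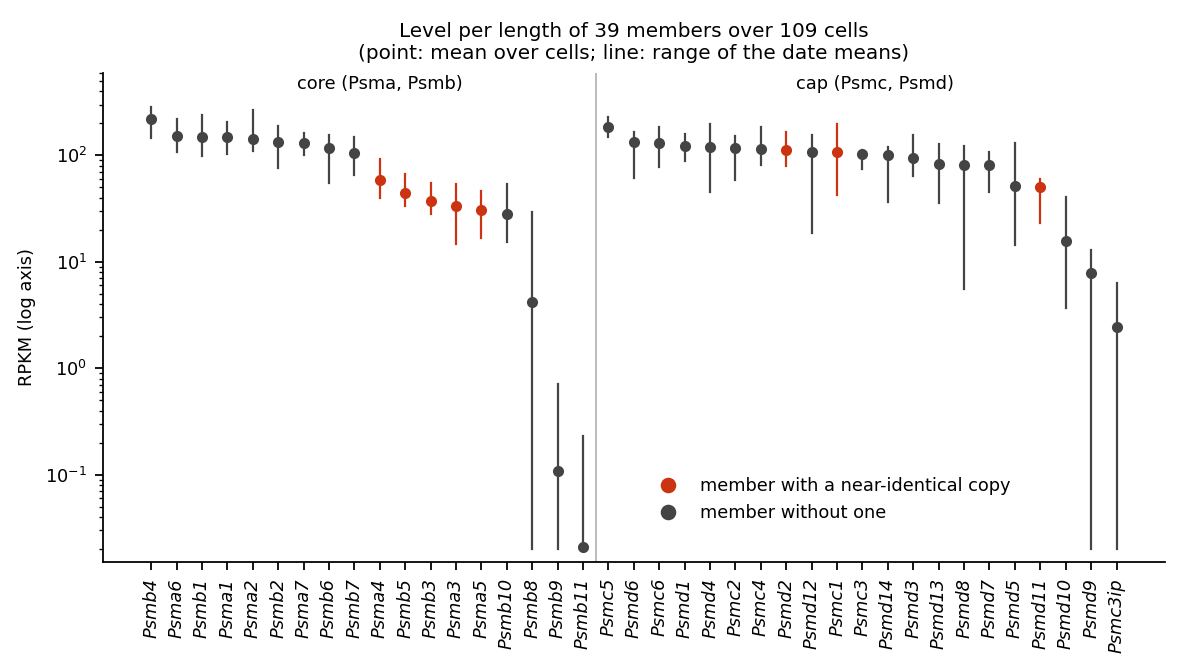
Level per length of each member with a value above 0, in RPKM on a log axis, with core members on the left and cap members on the right, each in falling order. Points are means over all kept cells, lines span the lowest and highest mean of a date (0 is drawn at the foot of the axis), and red marks members with a near-identical copy. *Psmb4* and *Psmc5* lead their sets at 218 and 185 RPKM, and the immunoproteasome members *Psmb8* and *Psmb9* and the symbol match *Psmc3ip* lie at the low end.

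*Psma3*, the member with the largest shared part, also behaved unlike the rest from cell to cell. It was read in 96.3% of cells (95% Clopper-Pearson interval 90.9% to 98.99%), the highest share of all 40 members, although its median of 41.1 CPM was low. Its values were lowest 0, median 41.1 and highest 254 CPM in V1 L4, and 0, 39.7 and 118.9 CPM in S1 L4. In V1 L5 they were 0, 35.7 and 107.4 CPM, and in S1 L5 0, 46.0 and 102.9 CPM, so the 4 groups overlapped almost fully. Its SD over cells on the log2(CPM + 1) scale was 1.33, against 2.25 to 3.45 for the other constitutive core members. Among the 1055 genes whose mean lay within 0.5 of its own, 3 had a smaller SD, and the median SD was 2.98. Its correlation over cells with the summed CPM of the other core members was 0.01, where that of *Psma2* was 0.60 and that of *Psmb5*, which also has a copy, was 0.58.

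How many members a cell showed followed how many genes it showed in all. A median of 31 of 40 members had at least 1 read, with a range of 13 to 37. In L4 the mean was 27.4 ± 6.72 for V1 and 28.6 ± 5.60 for S1, and in L5 30.4 ± 6.84 for V1 and 30.4 ± 5.06 for S1 (SD over cells), and each difference between groups was smaller than these SDs. Over all kept cells the count of members correlated with the count of all detected genes at r = 0.86, within a range of 0.82 to 0.92 in the 4 groups. The medians were 27.5 and 28.5 members in L4 of V1 and S1 and 33 and 32.5 in L5. After each cell was thinned to 250000 reads, without 3 cells that had fewer, they were 26 and 27.5 in L4 and 33 and 32 in L5. Most single constitutive members were read in 73.4% (*Psma6*) to 92.7% (*Psmd1*, *Psmd2*) of cells, with *Psma3* above this range.

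**Figure D3:**
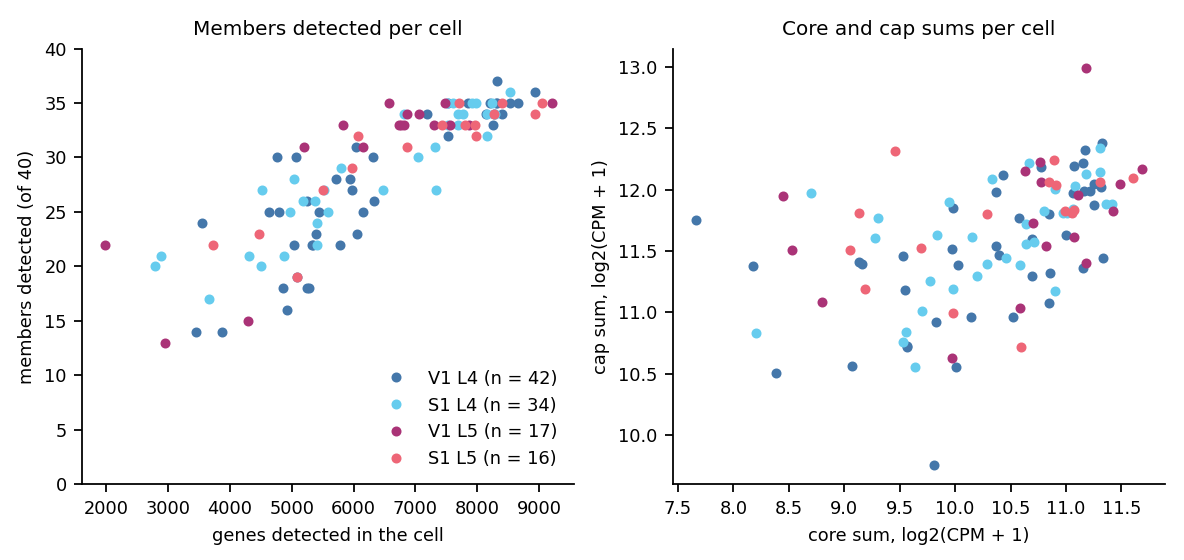
Left, the number of the 40 members with at least 1 read in each cell against the number of all genes detected in that cell, and right, the summed cap level against the summed core level of each cell, both on the log2(CPM + 1) scale. Each point is 1 kept cell, coloured by area and layer. The number of members levels off near 35 in cells with the most genes, and core and cap sums correlate at r = 0.49.

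The cutting subunits and their immunoproteasome replacements were read very unequally. *Psmb8*, which replaces *Psmb5*, had a read in 9 kept cells (8.26%, 95% Clopper-Pearson interval 3.85% to 15.1%), and *Psmb9*, which replaces *Psmb6*, in 2 cells (1.83%, 0.223% to 6.47%). *Psmb10*, which replaces *Psmb7*, had a read in 73 cells (67.0%, 57.3% to 75.7%). The constitutive partners were read in 75.2% (*Psmb5*), 85.3% (*Psmb6*) and 84.4% (*Psmb7*) of cells. Per length, *Psmb10* had 28.4 RPKM ± 34.8 against 104.9 RPKM ± 87.7 for *Psmb7*, *Psmb8* 4.16 RPKM ± 16.7 against 44.2 RPKM ± 42.5 for *Psmb5*, and *Psmb9* 0.108 RPKM against 117.5 RPKM for *Psmb6*. The value of *Psmb5* carries the limit of its copy.

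*Psmb10* was present in all 4 groups, in 26 of 42 (61.9%) and 25 of 34 (73.5%) cells of V1 and S1 in L4 and 10 of 17 (58.8%) and 12 of 16 in L5, and the exact intervals of these shares overlapped. It went with the constitutive core over cells, at r = 0.54 with the summed other core members. The cells with a *Psmb10* read were also deeper, with a median of 1316987 counts and a mean of 6943 detected genes, against 867504 counts and 5247 genes in the cells without one. With every cell thinned to 250000 reads, 65.1% of cells still had a *Psmb10* read.

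The 9 cells with a *Psmb8* read were 4 of 42 in V1 L4, 4 of 17 in V1 L5, 1 of 34 in S1 L4 and 0 of 16 in S1 L5, where a share of up to 20.6% remains possible by the exact interval. Their *Psmb8* levels ran from 8.47 to 111.8 CPM, and in 2 of them, both of V1 L5, the gene had under 10 reads. They came from 6 dates. The summed level of 7 microglia markers was above the median cell (76.4 CPM) in 8 of these 9 cells and in 46 of the other 100 cells, with medians of 395 and 49.7 CPM. *Psmb10* was at 0 in 6 of the 9 cells, and the other 3 had 3.80, 15.02 and 27.5 CPM. By group the median microglia level was 91.0 and 189.8 CPM in L4 of V1 and S1 and 25.3 and 15.7 CPM in L5, and the highest was 1512 and 1338 CPM in L4 and 3284 and 725 CPM in L5, where *P2ry12* was at 0 in S1. The part of microglial RNA in these reads was not tested.

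**Figure D4:**
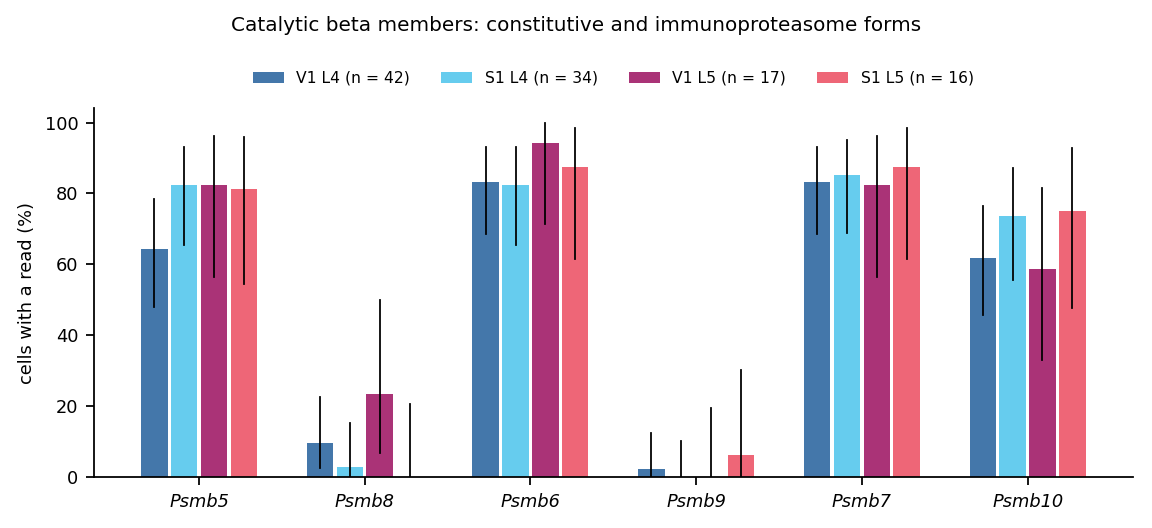
Percent of cells with at least 1 read (bars, axis from 0) of the 3 constitutive cutting subunits *Psmb5*, *Psmb6* and *Psmb7*, each followed by the immunoproteasome member that replaces it, by area and layer. Lines are 95% Clopper-Pearson intervals, which cover counting error only. *Psmb10* is read in 58.8% of V1 L5 cells and in more in the other groups, while *Psmb8* and *Psmb9* stay at 0 to 23.5%.

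Genes that interferon and antigen presentation usually bring up with the immunoproteasome were read just as unevenly. The peptide transporter gene *Tap1* had a read in 1 cell and the interferon-induced *Isg15* in 1 cell. The MHC class I light chain *B2m* was read in 75.2% of cells, the interferon-induced *Ifit2* in 66.1% and the proteasome activator subunits *Psme1* and *Psme2* in 68.8% and 55.0%. Of the 8 genes of this list compared in L4, *H2-K1*, *Ifit1* and *Ifit2* were called higher in S1 than in V1, by 1.29, 3.86 and 3.27, where 2.24% of all genes were called higher, while *Psmb8* and *Psmb9* did not pass the filter there. In L5, of 5 compared, *Ifit2* (1.29) was called higher in S1 and *B2m* (-1.73) and *H2-D1* (-1.67) lower, where 8.28% and 4.8% of all genes were. *Psmb10* was not called in any of the 4 contrasts.

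The tissue-restricted members were at or near 0. *Psma8*, the alpha subunit of the testis, had no read in any kept cell, which allows a share of cells with a read of up to 2.75% by a floor of 3 counts and 3.33% by the exact interval. *Psmb11*, the beta subunit of the thymus, had 1 read in 1 cell. *Psmc3ip* had a read in 10 cells with 361 counts in all. These 3 genes, *Psmb8* and *Psmb9* did not pass the filter in any contrast, and the assembly factor *Psmd9* did not pass it between areas in L5, so 35 members were compared in 3 contrasts and 34 in that one.

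Members varied together over cells. On the log2(CPM + 1) scale the median correlation was 0.33 between core members, 0.24 between a core and a cap member and 0.19 between cap members, against 0.06 over all pairs of the 9993 genes. The respiratory chain genes of the nucleus had 0.30 over 3916 pairs and the ribosomal protein genes 0.19 over 2145 pairs. The highest pair was *Psmb3* with *Psmb5*, at 0.57, both of which have copies. The 5 lowest pairs all held *Psma3*, with *Psmd4* (-0.18), *Psmc6* (-0.17), *Psmd12* (-0.15), *Psmc1* (-0.13) and *Psmb4* (-0.12). All these values come from the same libraries and share their depth.

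Summed over members, the core had 201 to 3301 CPM with a median of 1579 CPM, and the cap 866 to 8122 CPM with a median of 3378 CPM. The sums correlated at r = 0.49 over all kept cells and at 0.52 after the mean of each date was taken off. Within single dates, without date 1 and its 3 cells, r ran from 0.06 to 0.80. The core sum went closer with the summed respiratory chain genes (r = 0.71) than with the cap sum, and as close with the summed level of other genes whose transcripts are shorter than 1.3 kb (r = 0.73). For the cap sum the correlation with these short transcripts was 0.35. Core transcripts are short, with a median of 0.969 kb against 1.53 kb for cap subunits as the ratio of CPM to RPKM gives them. The part of transcript length in these correlations was not tested.

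The difference between core and cap sums, a log2 ratio, in L4 was -1.20 ± 0.79 for V1 and -1.27 ± 0.64 for S1, and in L5 -1.22 ± 0.95 for V1 and -1.36 ± 0.80 for S1 (SD over cells). Within dates, S1 minus V1 was 0.21 ± 0.56 in L4 (SD over 5 dates) and -0.21 ± 0.55 in L5 (4 dates). L5 minus L4 was -0.08 ± 0.88 in V1 (2 dates) and -0.02 ± 0.42 in S1 (3 dates). None of the 4 differences was larger than its SD over dates, so no shift between core and cap was detectable between areas or layers.

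Between areas in L4 the members barely moved as a set. The median difference over 35 members, S1 minus V1, was 0.10 ± 0.46 (SD over 5 dates), beside -0.13 ± 0.45 over all 9201 genes compared, and 21 members were above 0 and 14 below. One member was called, the ATPase *Psmc6*. Its CPM was lowest 0, median 209 and highest 465 in V1 L4 and 0, 147.1 and 672 in S1 L4, with a read in 41 of 42 and 28 of 34 cells, so the groups overlapped widely. The difference was -1.20 ± 0.80, and the 5 dates gave -1.57, -0.93, -0.04, -1.22 and -2.22. It kept the call under 10 of 15 alternatives, and was -0.998 after thinning, with 4 of 5 dates lower, and -0.45 among cells with at least 4000 genes. Of all genes, 3.55% were called lower in S1 L4 and 2.24% higher, and the 1 member of 35 called lower is 2.86%. Leaving out date 3, 5 or 8 gave 3, 5 and 0 called members, with no share over all genes at hand for these settings. The summed oligodendrocyte markers had a median of 70.0 CPM (0 to 3717) in V1 L4, where *Mag* was at 0, and 628 CPM (0 to 9510) in S1 L4, and the 3 compared had a median difference of 2.22 with none called. The immediate-early gene *Fosb* was called lower in S1 L4 (-1.60). The part of these in the difference was not tested.

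The larger differences in L4 did not keep their sign over dates. The lid subunit *Psmd12* (1.43 ± 1.87), the ATPase *Psmc5* (1.13 ± 1.81) and the alpha subunit *Psma7* (1.03 ± 1.37) were higher in S1 L4 in 4 of 5 dates each. The scaffold subunit *Psmd2* differed by -1.35 ± 2.64 and was lower in 3 of 5 dates, and the ATPase *Psmc2* by -1.09 ± 1.24, lower in 4 of 5. Only *Psmc6* of the 35 members had a mean larger than its SD over dates.

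Between areas in L5, 4 of 34 members were called. The median difference over members, S1 minus V1, was -0.30 ± 0.55 (SD over 4 dates), beside 0.13 ± 0.25 over 6402 genes. Of all genes, 8.28% were called higher and 4.8% lower in S1 L5, and the members had 2 each way, 5.88%. The share called was thus near that of all genes.

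*Psmd14*, the lid enzyme that cuts ubiquitin off the substrate, had 0, 64.6 and 441 CPM (lowest, median, highest) in V1 L5 and 0, 189 and 561 CPM in S1 L5. It was higher in S1 L5 by 1.69 ± 1.21, with 1.70, 0.87, 0.80 and 3.40 in the 4 dates. The lid subunit *Psmd13* had 0, 86.2 and 294 CPM in V1 L5 and 16.95, 155.3 and 350.1 CPM in S1 L5, where every cell had a read. It was higher by 1.501 ± 1.38, with 3.56, 0.85, 0.95 and 0.64. Its exons overlap those of *Sirt3* on the other strand.

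*Psma6* was lower in S1 L5 by 1.68 on this scale (-1.68 ± 1.15), with -2.36, -0.16, -1.48 and -2.74 in the 4 dates. It had 0, 138.8 and 923 CPM in V1 L5, read in 16 of 17 cells, and 0, 86.9 and 539 CPM in S1 L5, read in 12 of 16 cells. *Psmd1*, the largest scaffold subunit, had 46.0, 405 and 729 CPM in V1 L5 and 0, 250 and 603 CPM in S1 L5, a difference of -1.50 ± 0.69 with -2.23, -0.73, -1.91 and -1.13. Cells of both areas overlapped in all 4 genes. *Psmd14*, *Psma6* and *Psmd1* kept the call under each of 14 alternatives, while *Psmd13* kept it under 11 of 14. The exons of *Psmd1* overlap those of other genes. The 5 other differences above 1 in size, *Psmd5* (-1.88 ± 2.02), *Psmd10* (-1.50 ± 1.35), *Psmd7* (-1.36 ± 1.71), *Psma2* (-1.005 ± 1.56) and *Psmd2* (1.002 ± 1.13), turned sign in 1 of 4 dates each. The oligodendrocyte gene *Mbp* was called higher in S1 L5 as well, by 3.13. The summed level of 5 oligodendrocyte markers ran from 0 to 3870 CPM in V1 L5, where *Mog* was at 0, and from 0 to 5415 CPM in S1 L5, and its part in these differences was not tested. With date 3, 4 or 5 left out, 7, 7 and 8 members were called, with no share over all genes at hand for these settings.

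**Figure D5:**
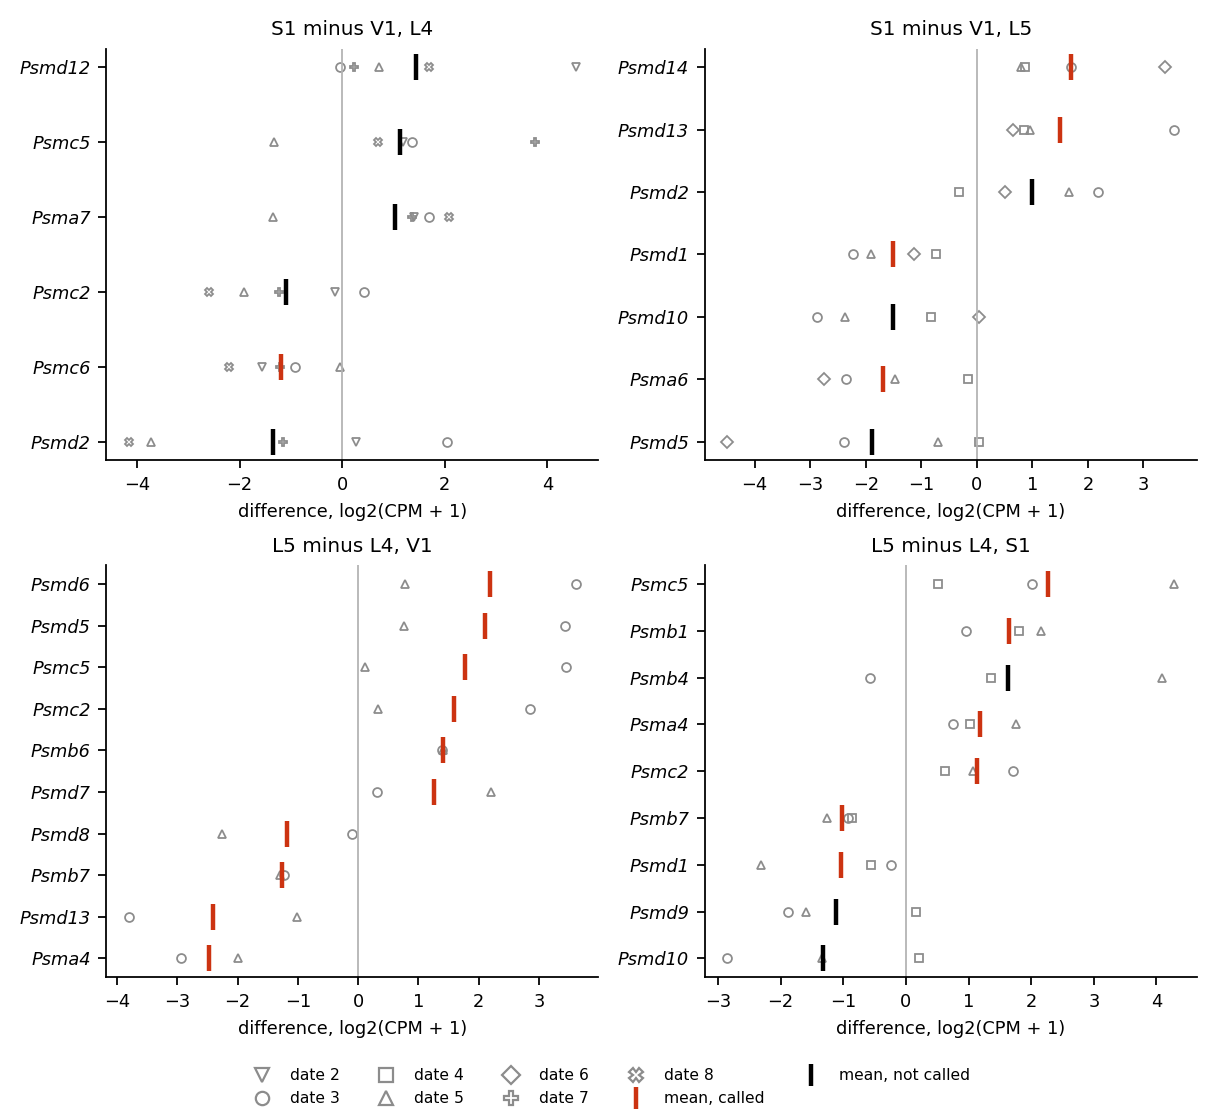
Differences on the log2(CPM + 1) scale (horizontal axis) for the members that were called or were among the 3 largest each way, in 4 panels: S1 minus V1 in L4 and in L5, and L5 minus L4 in V1 and in S1. Open symbols are single dates, bars are means over dates, and red bars mark called members. In L4, *Psmc6* is the 1 called member, and in V1 the layer differences rest on 2 dates that often lie far apart.

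Between layers in V1 the comparison rests on dates 3 and 5 alone, with 2 and 3 L4 cells beside 5 and 4 L5 cells. The median difference over 35 members, L5 minus L4, was 1.36 in date 3 and -1.01 in date 5, so the set changed sign with the date. The mean of 0.46 ± 1.68 stands beside -0.42 ± 0.39 over 8396 genes. Of all genes, 12% were called higher and 27.2% lower in V1 L5. Of the members, 6 (17.1%) were called higher and 4 (11.4%) lower. In either date taken alone, where the same-sign rule asks nothing, 25 or 23 members would have passed. No share over all genes is at hand for a single date. Over both dates, 13 of 35 members had a mean difference of at least 1 in size, beside 53.3% of all genes.

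The members called higher in V1 L5 were *Psmd6* (2.19 ± 2.01), the assembly factor *Psmd5* (2.10 ± 1.89), *Psmc5* (1.78 ± 2.35), *Psmc2* (1.59 ± 1.79), *Psmb6* (1.40 ± 0.01) and the lid subunit *Psmd7* (1.25 ± 1.34). Those called lower were *Psma4* (-2.47 ± 0.67), *Psmd13* (-2.42 ± 1.97), *Psmb7* (-1.26 ± 0.04) and the lid subunit *Psmd8* (-1.19 ± 1.52). With dates ignored, *Psma4* and *Psmd8* had the other sign, at 0.12 and 1.41. *Psmc2* was 0.06 with dates ignored and 0.32 without date 3, and after thinning its 2 dates had opposite signs. *Psmb7* was -0.06 with reads thinned and 0.23 among cells with at least 4000 genes. Part of its exons overlaps exons of *Nek6* on the other strand, and reads of that part cannot be told apart without strand. The stress genes *Fos*, *Jun*, *Junb*, *Egr1* and *Hspa1a* were called lower in V1 L5 too, *Hspa1a* by -5.77. So were the GABAergic markers *Gad2* (-1.02), *Lhx6* (-2.59) and *Elfn1* (-3.34), the interneuron markers *Npy* (-2.41) and *Reln* (-2.37) and *Mbp* (-2.11), and the median difference of the 3 microglia markers compared was 1.76. The part of these in the members' differences was not tested.

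Between layers in S1 the set differed little from the background. The median difference over 35 members was 0.27 ± 0.05 (SD over dates 3, 4 and 5), beside 0.18 ± 0.19 over 8147 genes. Of all genes, 13.7% were called higher and 8% lower in S1 L5, against 4 members (11.4%) and 2 members (5.71%). Leaving out date 3 or 4 gave 10 and 15 called members, and a pseudocount of 10 CPM gave 2, with no share over all genes at hand for these settings.

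The ATPase *Psmc5* differed most, by 2.27 ± 1.90. It had 0, 223 and 537 CPM in S1 L4 and 47.4, 279 and 872 CPM in S1 L5, and the 3 dates gave 2.01, 0.52 and 4.29. *Psmb1* was higher by 1.65 ± 0.61 (0.97, 1.81 and 2.16), *Psma4* by 1.18 ± 0.51 (0.76, 1.03 and 1.75) and *Psmc2* by 1.13 ± 0.54 (1.70, 0.62 and 1.07). *Psmd1* was lower, at -1.04 ± 1.12 (-0.24, -0.56 and -2.32). That call held under 5 of 13 alternatives, with -0.40 without date 5 and -0.60 after thinning. *Psmb7* was lower too, at -1.02 ± 0.21, which with dates ignored was 0.49. *Psmb4* had 1.63 ± 2.35 but was lower in date 3, and *Psmd10* (-1.33 ± 1.54) and *Psmd9* (-1.11 ± 1.10) were higher in date 4, so these 3 were not called. *Mbp* was called higher in S1 L5 by 2.63, while the 3 oligodendrocyte markers compared had a median difference of -0.25. Of the other marker and stress genes, *Elfn1* (-2.12), *Reln* (-1.57) and *Jun* (-1.50) were called lower in S1 L5. The part of these in the members' differences was not tested.

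The V1 and S1 layer comparisons share no cells, though they share dates. *Psmc2*, whose V1 call was lost with dates ignored and after thinning, and *Psmc5* were called higher in L5 in both, 33.3% of the members called higher in V1 and 50% of those in S1, against 16.1% and 14.3% for all genes. *Psmb7* was called lower in both, 1 of the 4 members called lower in V1 and 1 of the 2 in S1. These shares, 25% and 50%, stand beside 10.8% and 36.9% for all genes. The *Psmb7* call held under 8 of 12 alternatives in V1 and 7 of 13 in S1, and turned sign under 1 in each. *Psma4* was called in opposite directions, 1 of the 35 members compared in both, beside 293 of all 7733 genes compared in both. In the area comparisons, no member was called in both layers, where for all genes the shares were 9.15% and 2.48% of those called higher in L4 and L5 and 5.53% and 3.92% of those called lower.

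The partners of the proteasome were described in the same way, beside the shares over all genes given above. Of 33 listed genes for activators, assembly, cap partners, regulation, ubiquitin and shuttling, 32 were in the table, 30 were compared between areas in L4 and 1 was called there, the activator *Psme4* (-1.78). In L5 3 of 25 were called higher in S1, the cap partners *Adrm1* (1.36) and *Uchl5* (1.15) and the ubiquitin-activating enzyme *Uba6* (1.54), and 1 lower, the activator *Psme3* (-1.46). In V1, 1 of 27 was called higher in L5, *Ufd1l* (1.38), and 6 lower, among them the activators *Psme1* (-2.08) and *Psme2* (-3.03). In S1, 5 of 27 were called higher in L5 and none lower: the core assembly factor *Psmg2* (1.56), the cap deubiquitinase *Usp14* (1.76), the glycanase *Ngly1* (2.42), the shuttle *Ubqln2* (1.17) and *Ufd1l* (2.80). The ubiquitin gene *Ubb* was read in every cell at 610 RPKM, and *Nfe2l1*, the factor known to raise proteasome genes when the proteasome is blocked, in 74.3% of cells at 38.1 RPKM.

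*Nfe2l1* binds antioxidant-type elements, written here as TGACNNNGC. RefSeq promoter windows (GRCm38.p6, 250 bases before to 50 after the start) were at hand for 33 of the 40 members, in 35 windows. The motif was found on either strand in 14.3% of member windows, 12.4% of all 32851 windows and 14.1% of the windows of genes past the filter, so the members held it about as often as other expressed genes. The 5 matches are shown with up to 10 bases on each side, the match in capitals, read along the gene's strand. They lie at chr14:54618024-54618052 (- strand) for *Psmb5*, chr11:70525338-70525366 (+ strand) for *Psmb6*, chr14:45329587-45329615 (+ strand) for *Psmc6*, chr5:123228149-123228177 (+ strand) for *Psmd9* and chr11:107479278-107479299 (+ strand) for *Psmd12*.
Psmb5: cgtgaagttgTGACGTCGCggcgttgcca
Psmb6: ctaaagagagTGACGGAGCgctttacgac
Psmc6: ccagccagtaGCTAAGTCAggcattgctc
Psmd9: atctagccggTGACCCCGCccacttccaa
Psmd12: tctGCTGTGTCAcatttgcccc

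In *Psmb5*, *Psmb6* and *Psmd9* the match began 47, 9 and 31 bases before the start and read as written, and in *Psmc6* and *Psmd12* it was the reverse complement and began 227 and 247 bases before. A match is a string of letters and not a bound site. The ETS-type string CCGGAAG, searched after the first motif had been counted, was in 34.3% of member windows, 8.86% of all windows and 17.7% of windows of genes past the filter. It stood in windows of 11 members, *Psma6*, *Psmc1*, *Psmc2*, *Psmc3ip*, *Psmc6*, *Psmd2*, *Psmd4*, *Psmd6*, *Psmd11*, *Psmd12* and *Psmd13*, of which 10 are cap symbols. The interferon-type string GAAANNGAA, searched likewise, was in 14.3% of member windows, 8.56% of all and 6.49% of those of genes past the filter, with *Psmb3*, *Psmb4*, *Psmc2*, *Psmd4* and *Psmd9* as the holders.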

How the data were processed

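Single SOM+ cells of V1 and S1 were sequenced by the authors with 75-base single-end reads, aligned to mm10 with STAR 2.4.2a (bcl2fastq 2.20 before that, per the submitters' processing notes). The authors deposited raw read counts per gene without normalization, and RPKM values made with rpkmforgenes and RefSeq gene models; how reads with several matches were treated is not given in the sources used here. The 24490 entries were summed to 23998 symbols, and each member had 1 entry. Groups came from the labels. Of 118 cells, 4 had under 1500 detected genes, 1 was glutamatergic and 4 had no *Sst* read.

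Values are log2(CPM + 1). Differences were taken within dates with at least 2 cells of each group and averaged. The study's methods give fewer mice than there are dates, so dates are not separate animals, and an SD over dates is not one over animals. Named are the members with the 3 highest and lowest levels, all called members, the 3 largest differences each way, the cutting subunits and the members left out by the filter. Thinning drew 250000 reads per cell with seed 1. Copies were sought with BLAST 2.17.0 (95% identity, 50% of the coding sequence) after levels had been seen. R 4.3.3 with edgeR 4.0.16 gave TMM scaling, and all else ran in Python 3.11.15 (pandas 2.3.3, NumPy 2.4.6, matplotlib 3.10.9, SciPy 1.17.1). Alternatives were dates ignored, TMM scaling, *Rn45s* left out of the total, RPKM, a pseudocount of 10, thinned reads, at least 4000 genes, cells without *Sst* kept, other gene filters, members without a copy (added after the data were seen) and each date left out. The members and lists were chosen with earlier results of these data known.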

Additional observations from a re-analysis of the deposited data

Results flagged for a closer look

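The layer difference had opposite signs in V1 and S1 for 2 members, in every date of each area. The alpha subunit *Psma4* was -2.47 in V1 (L5 minus L4, lower in 2 of 2 dates) and 1.18 in S1 (higher in 3 of 3 dates). The lid subunit *Psmd13* had -2.42 in V1 against 0.74 in S1. Whether the areas differ in this was not tested, and the V1 values rest on 5 L4 cells. Only *Psma4* was called in both areas, 1 of 35 members, beside 293 of 7733 genes called in opposite directions. *Psma4* has a near-identical copy, and *Psmd13* overlaps *Sirt3* on the other strand.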

How the results depend on the processing

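No paired analysis was possible because the numbers that cells of different groups share were given in accession order and pair nothing, and the labels name no animal. Over 40 settings other than leaving out a date, the core minus cap difference moved by less than its SD over dates. Each difference is smaller than that SD, so a change of sign can pass this check. With dates ignored, S1 minus V1 in L4 was -0.07, against 0.21 within dates. The other differences were then -0.14 between areas in L5, -0.02 between layers in V1 and -0.09 between layers in S1. Leaving out 1 date cannot move a mean over dates by as much as that SD. The 14 leave-one-out settings are therefore given as ranges only. With each of 9 dates left out, the core and cap correlation was 0.42 to 0.54 and the 3.80-fold difference of core levels 3.61 to 3.97. The members detected per cell were 30 to 31.5. The share of cells with a read of any of *Psmb8*, *Psmb9* and *Psmb10* was 71.1% to 74.5%. With all dates kept this share was 72.5%. It came mostly from *Psmb10*, read in 67.0% of cells, while *Psmb8* or *Psmb9* was read in 9.17%. In the order given, 7, 3, 3 and 4 other settings moved these results by less than their spread or interval. With a date left out, the core minus cap difference was -0.01 to 0.36 and -0.43 to -0.02 between areas in L4 and L5. Between layers it was -0.70 to 0.54 in V1 and -0.25 to 0.13 in S1, so its sign there turned with the date left out.
The same-sign rule asks less with fewer dates, and nothing with dates ignored or 1 date left. No share over all genes is at hand for the settings below, so whether their counts are particular to the members was not tested. The number of called members was less steady. In L4 it was 8 with dates ignored, 0 with a pseudocount of 10 CPM, 0 after thinning, 0 with at least 4000 genes and 2 with cells lacking *Sst* kept, and 0 to 5 with a date left out. In L5 it was 10 with dates ignored and 5 to 8 with a date left out. Between layers in V1 it was 4 with a pseudocount of 10 CPM and 23 to 25 with a date left out. In S1 it was 2 with a pseudocount of 10 CPM and 9 to 15 with a date left out. The median over members between layers in S1 was 0.49 with dates ignored, 0.34 with RPKM, 0.20 with a pseudocount of 10 CPM, 0.43 thinned, 0.58 with at least 4000 genes, 0.37 with cells lacking *Sst* kept, 0.10 without a gene filter, 0.20 without members that have a copy (the last chosen after seeing the data), and 0.19 to 0.28 with a date left out. With a date left out it was -0.17 to 0.47 and -0.27 to 0.10 between areas in L4 and L5 and -1.01 to 1.36 between layers in V1. The sign turned for *Psma4* (0.12) and *Psmd8* (1.41) in V1 and *Psmb7* in S1 (0.49) with dates ignored, and for *Psmb7* in V1 (0.23) with at least 4000 genes. The cause was not tested.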
